A study of Drosophila melanogaster with 8 samples.

Results

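The ovaries described here are those of Drosophila melanogaster females whose germline carried an RNA interference hairpin against stwl, driven once with the driver bamGAL4 and once with the driver nosGAL4. The members are 4 of the 8 RNA sequencing libraries of the study, chosen by their labels: 2 of bamGAL4>stwl RNAi/TM6 and 2 of nosGAL4;stwl RNAi/TM6. The remaining 4 libraries are the drivers' own controls, bamGAL4 with no balancer in its listed genotype (2 libraries) and nosGAL4;MKRS/TM6 (2 libraries), and they serve as the background for the comparison. All are whole adult ovaries dissected on days 1 to 3 after eclosion, so that both kinds of targeted ovary share the hairpin over the balancer TM6 and the age window. Each driver came in its own table of counts and its own fly line, so that driver, line and table cannot be told apart.

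Stonewall, the product of stwl, is a MADF-domain protein that associates with chromatin and is needed to keep female germ cells. In the ovary, germline stem cells divide at the tip of the germarium, their daughters form cysts, and one cell of each cyst becomes the oocyte while somatic follicle cells wrap the cyst and later secrete the eggshell. The nanos promoter of nosGAL4 is used to drive expression from the germline stem cells on, and the bam promoter of bamGAL4 in the dividing cyst cells that follow. In whole ovaries, fewer cells of a type and less RNA per cell cannot be told apart.

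The targeted gene did not check the labels. stwl (chromosome 3L, 14402930 to 14409939) had 23.2 and 29.6 CPM (counts scaled to a common library size with TMM factors) in the bamGAL4 libraries labelled knockdown, against 61.1 and 27.7 CPM in the nosGAL4 libraries labelled knockdown. The controls had 18.2 and 21 CPM with bamGAL4 and 23.1 and 16.9 CPM with nosGAL4, so that no library labelled knockdown was below either of its own controls. The log2 fold change of bamGAL4 over nosGAL4 was -0.75 (SE 0.36, adjusted p = 0.249). Both groups are therefore called by their label below, and every direction given rests on that label.

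Total counts were 12174983 and 11133868 in the bamGAL4 libraries labelled knockdown against 8459978 and 8531275 in the nosGAL4 libraries so labelled, and 7473859 to 11503628 in the controls. Replicates of the bamGAL4 pair were alike, with 3.76% of the tested genes more than 2-fold apart. The nosGAL4 pair was not, with 18.9% of genes more than 2-fold apart, against 9.66% in the bamGAL4 controls and 8.55% in the nosGAL4 controls. Replicate 1 of the nosGAL4 pair held more eggshell RNA than replicate 2 and kept more of its control level over the median germ cell gene, although the summed germ cell RNA was not higher in it and single genes ran either way. Counts or medians of the germline and eggshell lists are therefore also given without each library of that pair. Nothing in the labels says that replicates came from separate flies, so the p-values measure the spread between libraries, which may be technical. That spread is estimated from all 8 libraries together, so that it is not the nosGAL4 pair's own.

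Most of the transcriptome was close between the 2 kinds of ovary. Among all genes tested, 81.1% were within 2-fold. Of 7071 genes with a mean of at least 5 CPM in both groups, 6428 (90.9%) were within 2-fold. For 3571 of these (50.5%) the 95% interval of the fold change itself lay within 2-fold. That set leaves out 337 genes at 5 CPM or more with nosGAL4 only and 366 with bamGAL4 only. Over all 8957 genes tested, the median log2 fold change of bamGAL4 over nosGAL4 was -0.01 and the median size of the change 0.41, against 0.46 between the drivers' controls. edgeR's quasi-likelihood test called 371 genes at an adjusted p under 0.05 (4.14%), with 190 higher (2.12%) and 181 lower (2.02%) in the bamGAL4 libraries labelled knockdown. Groups that did not overlap were common, at 5082 genes (56.7%), so absence of overlap says little in a comparison of 2 against 2. Scaled to the ribosomal protein genes, which moved the median of all genes to 0.45, the split was 396 higher and 87 lower. The counts leaned on single libraries. Without bamGAL4 replicate 1 the test called 10 higher and 12 lower, and without bamGAL4 replicate 2 it called 26 and 26. Without nosGAL4 replicate 1 the counts were 256 and 210, and without nosGAL4 replicate 2 they were 534 and 837. With one or the other nosGAL4 control left out they were 160 and 161 higher, with 99 lower each time. In the lists of somatic cell types other than fat body and eggshell, the calls depended on both bamGAL4 replicates. The same held for the immune, ecdysone and signalling lists.

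**Figure D1:**
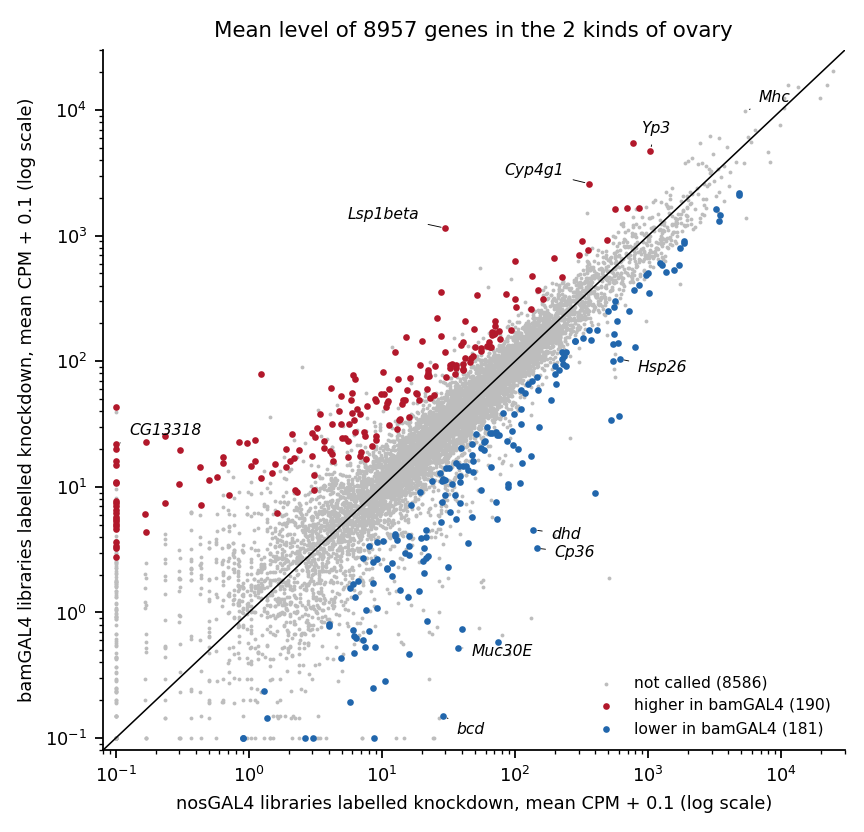
Mean CPM + 0.1 of each tested gene in the bamGAL4 libraries labelled knockdown (vertical, log scale) against the nosGAL4 libraries labelled knockdown (horizontal, log scale), 2 libraries each, with the line of equality. The 190 genes called higher (red) and the 181 called lower (blue) lie off a cloud of 8957 genes whose median log2 fold change is -0.01.

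The bamGAL4 over nosGAL4 comparison between the drivers' own controls called partly overlapping sets of genes. By the listed genotypes these controls differ in balancers as well as in driver line, unlike the libraries labelled knockdown, which all carry TM6. Driver line and balancer cannot be told apart there, nor in the difference between both comparisons. Between the controls, bamGAL4 over nosGAL4, 609 genes were called (6.8%), 330 higher (3.68%) and 279 lower (3.11%). Of the 190 genes higher in the bamGAL4 libraries labelled knockdown, 19 were also called higher in the bamGAL4 controls and 5 were called lower there. Of the 181 lower genes, 23 were also called lower and 7 higher. The difference between the 2 comparisons (targeted minus control) was itself called for 240 genes (2.68%), 104 positive (1.16%) and 136 negative (1.52%), and these included 57 of the 190 higher and 49 of the 181 lower genes. For the remaining genes the difference was not shown to depart from that between the controls. The 2 directions also differed in what the controls express. A mean of at least 5 CPM in both control groups was found for 152 of the 181 lower genes (84%) and for 72 of the 190 higher genes (37.9%), against 73.5% of all tested genes.

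**Figure D2:**
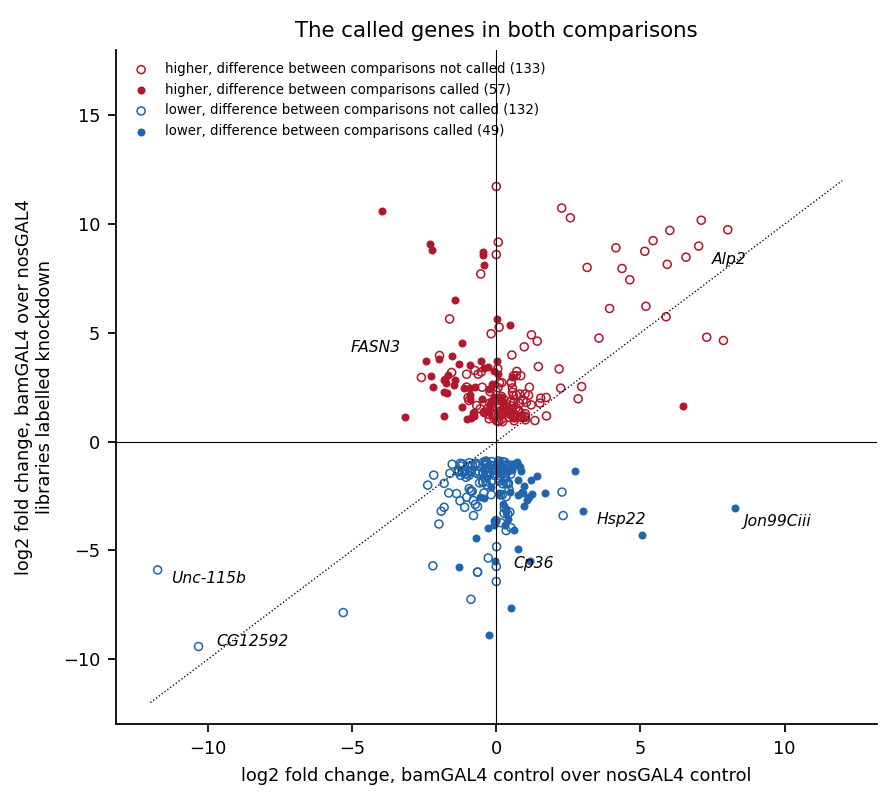
Log2 fold change of bamGAL4 over nosGAL4 in the libraries labelled knockdown (vertical) and in the controls (horizontal) for the genes called in the libraries labelled knockdown, with equality dotted. Filled points are the 57 higher (red) and 49 lower (blue) genes for which the difference between both comparisons was itself called; Hsp22 and Jon99Ciii were higher in the bamGAL4 controls and lower in the bamGAL4 libraries labelled knockdown, while CG12592 and Unc-115b were lower in both.

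Eggshell genes showed the largest shift of any list examined. Follicle cells make the vitelline membrane and then the chorion around maturing oocytes, and these RNAs were far below their control level in the bamGAL4 libraries labelled knockdown. Of 27 tested genes, 12 were lower, 0 were higher and all 27 had a negative log2 fold change, with a median of -4.43 against -0.01 over all genes (-4.18 with a gene at 0 set at its bound). Summed over the list, they came to 207 and 207 CPM in the bamGAL4 libraries labelled knockdown and 5111 and 1049 CPM in the nosGAL4 libraries labelled knockdown, against 24087 and 33311 CPM in the bamGAL4 controls and 26785 and 27357 CPM in the nosGAL4 controls. The direction of the shift did not rest on the nosGAL4 library with the most eggshell RNA, but part of its size did. Without that library the median was -2.39, and without nosGAL4 replicate 2 it was -4.82. The calls did depend on both bamGAL4 libraries, with 1 lower gene left without replicate 1 and 2 without replicate 2.

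The chorion gene Cp36 (chromosome X, 8479319 to 8480523) had 3.81 and 2.48 CPM in the bamGAL4 libraries labelled knockdown, against 192 and 97.9 CPM in the nosGAL4 libraries labelled knockdown. The log2 fold change of Cp36 was -5.51 (SE 0.41, adjusted p = 0.000771), and the control groups, at 3340 and 3837 CPM with bamGAL4 and 3289 and 4050 CPM with nosGAL4, did not differ by the test. The chorion gene Cp15 (0.177 and 0.795 CPM, against 130 and 17.9 CPM) and the vitelline membrane genes Vm34Ca (9.57 and 7.95 CPM, against 695 and 105 CPM) and Vm26Aa (39.8 and 32.9 CPM, against a mean of 602 ± 544 CPM, SD, n = 2) were lower too, with log2 fold changes of -7.25, -5.51 and -4.05. In all 3 the lower nosGAL4 library was still well above both bamGAL4 libraries. yellow-g2, a gene of the yellow family with a role in the vitelline membrane, picked with its values known, had no count in either bamGAL4 library and stood at 4.05 and 1.06 CPM in the nosGAL4 pair, at least 18.1-fold lower when the bamGAL4 group is given a floor of 3 counts in all. dec-1, which encodes eggshell proteins that are cleaved in steps, did not pass, with 76.4 and 95.7 CPM against 854 and 244 CPM (log2 fold change -2.67, SE 0.66, adjusted p = 0.0735).

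**Figure D3:**
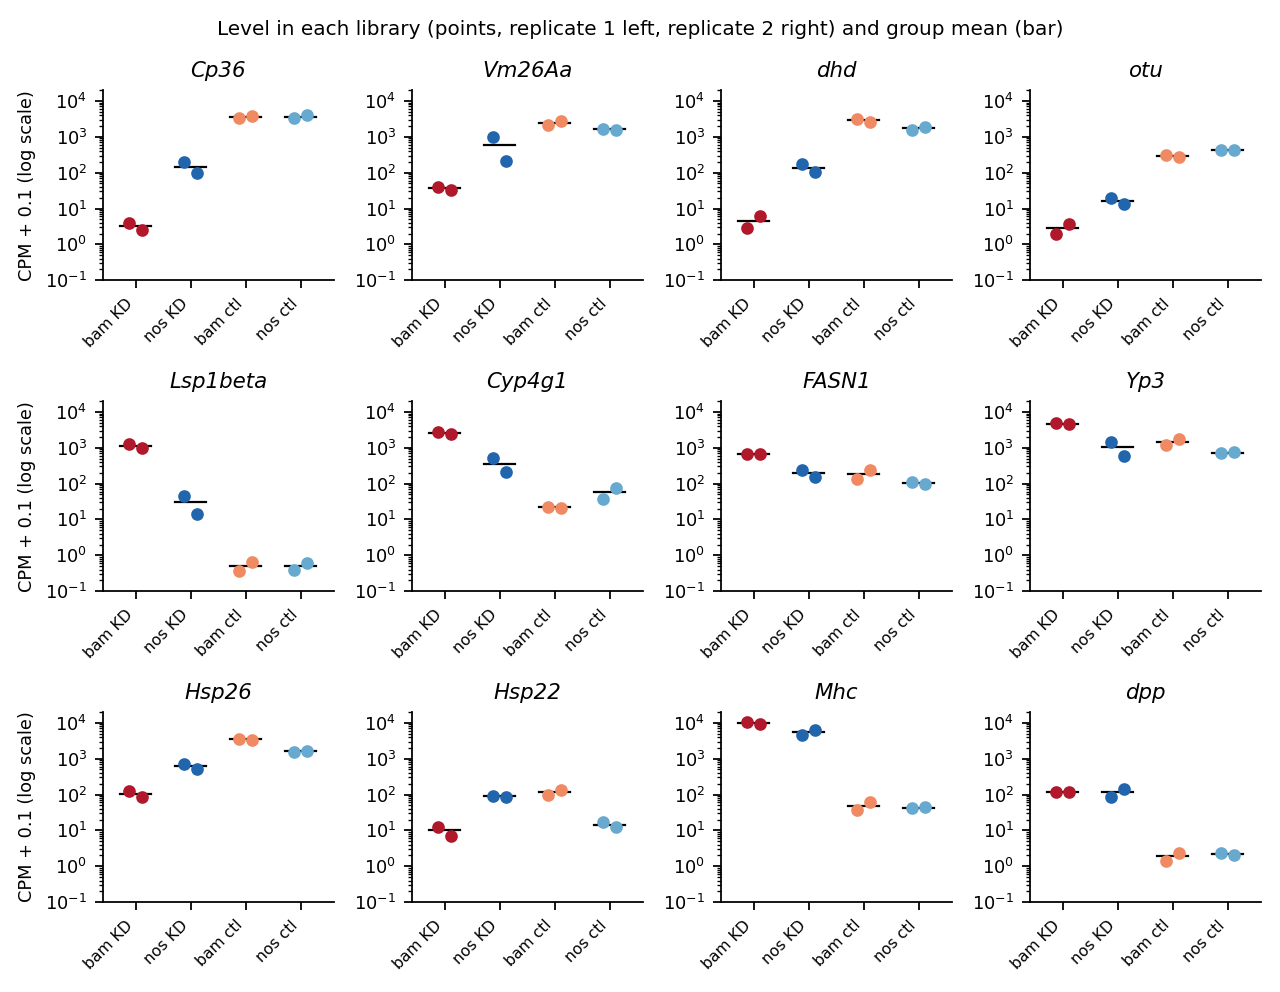
CPM + 0.1 (log scale) of 12 genes in each library, as points with the group mean as a bar: bam KD and nos KD are the libraries labelled knockdown, bam ctl and nos ctl the controls. Cp36, Vm26Aa, dhd, otu, Hsp26 and Hsp22 lie lower in bam KD than in nos KD, Lsp1beta, Cyp4g1, FASN1 and Yp3 lie higher, and Mhc and dpp were not called.

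The median germ cell gene was well below its control level in both kinds of ovary, and a few genes were lower with bamGAL4. Of 26 genes that mark or maintain germ cells, 3 were lower and 0 higher, with a median log2 fold change of -0.79. The median member with at least 5 CPM in both controls kept 6.83% and 12.5% of its own control level in the bamGAL4 libraries labelled knockdown against 33.2% and 15% in the nosGAL4 libraries so labelled, so that nosGAL4 replicate 2 was closer to the bamGAL4 pair than to its own replicate. This order depends on the scaling: scaled to the ribosomal protein genes, the mean of the 2 libraries was 18.2% with bamGAL4 against 15.6% with nosGAL4, where it was 9.69% against 24.1% with TMM. The oocyte list below turned round in the same way, with 15.6% against 9.31%, where it was 8.41% against 14%. The 3 lower genes were otu, which acts in germ cell sex determination and cyst growth, zpg, a gap junction protein of germ cells, and tej, a Tudor-domain protein of the nuage. otu had 1.86 and 3.68 CPM in the bamGAL4 libraries labelled knockdown, against 19.1 and 12.9 CPM in the nosGAL4 libraries labelled knockdown (log2 fold change -2.53, SE 0.34, adjusted p = 0.00499). tej had 2.04 and 4.97 CPM against 26.6 and 62.2 CPM (log2 fold change -3.67, SE 0.55, adjusted p = 0.0113). Without bamGAL4 replicate 1 the list had 0 calls, and without replicate 2 it had 2. Without nosGAL4 replicate 1 there were 5 lower genes (median -0.48), and without nosGAL4 replicate 2 there were 10 (median -0.84).

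vas, the RNA helicase used as a germ cell marker, had 7.89 and 21.8 CPM in the bamGAL4 libraries labelled knockdown, against 139 and 46.4 CPM in the nosGAL4 libraries labelled knockdown. Its groups did not overlap, and it missed the threshold (log2 fold change -2.65, SE 0.61, adjusted p = 0.0617). The genes behind both drivers were low in the 4 libraries labelled knockdown. nos itself had 1.51 and 2.68 CPM against 4.59 and 1.46 CPM (log2 fold change -0.54, adjusted p = 0.546), where the controls had 408 to 499 CPM, and bam had 0.0886 and 0.696 CPM against 0 and 0.928 CPM (controls 39.9 to 46.8 CPM), so that a difference in bam was not detectable at this depth.

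Genes that load the oocyte followed the same direction, in part. Of 43 genes for maternal RNAs and oocyte patterning, 7 were lower and 0 higher, with a median log2 fold change of -0.82. Without bamGAL4 replicate 1 the list had 1 lower gene, and without replicate 2 it had 3. Without nosGAL4 replicate 1 there were 8 (median -0.49), and without nosGAL4 replicate 2 there were 19 (median -0.87). dhd, the maternal thioredoxin that remodels sperm chromatin (chromosome X, 5312171 to 5313125), had 2.84 and 6.06 CPM in the bamGAL4 libraries labelled knockdown, against 173 and 101 CPM in the nosGAL4 libraries labelled knockdown (log2 fold change -4.95, SE 0.42, adjusted p = 0.0015). bcd, the anterior determinant, had 0 and 0.0994 CPM against 46.2 and 11.1 CPM. With 1 count in the bamGAL4 pair, the ratio of summed counts was 0.00164 (95% interval 4.15e-05 to 0.0092). wisp, the poly(A) polymerase that activates maternal RNAs, had 2.75 and 3.78 CPM against 17.4 and 14.3 CPM (log2 fold change -2.28, adjusted p = 0.00574). osk, the posterior determinant, had 4.87 and 10.5 CPM against 104 and 26.5 CPM and lay just outside the threshold (log2 fold change -3.09, SE 0.66, adjusted p = 0.0501). grk, the ligand from the oocyte to the follicle cells, went the other way without passing the test, with 50.2 and 44.5 CPM against 31.1 and 37.1 CPM, and its exons overlap another gene.

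In meiosis genes 1 was higher and 1 lower of 33, where 4.14% of all tested genes were called. The median of -0.44 came to 0.11 when scaled to the ribosomal protein genes. Without nosGAL4 replicate 1 there were 0 higher and 3 lower (median -0.09), and without nosGAL4 replicate 2 there were 1 and 5. The lower one was mtrm, the inhibitor of Polo that holds the oocyte in prophase, with 0.266 and 0.397 CPM against 4.59 and 5.04 CPM (log2 fold change -3.82, SE 0.40, adjusted p = 0.00206). The higher one, mei-217, shares exons with mei-218 and is likewise uncertain. In the piRNA pathway, 3 of 30 genes were lower (tej, aub and zuc, the last chosen after its values were seen) and 1 was higher, with a median of -0.71. Without bamGAL4 replicate 1 there were 0 lower genes and without replicate 2 there was 1, while without nosGAL4 replicate 1 there were 2 (median -0.19) and without nosGAL4 replicate 2 there were 14 (median -1.02). aub, a PIWI protein of the nuage, had 6.47 and 10.6 CPM against 41.8 and 17.8 CPM (log2 fold change -1.80, SE 0.43, adjusted p = 0.0484). piwi, which the ovarian soma also expresses, had 120 and 145 CPM against 195 and 127 CPM and was not called (95% interval of the log2 fold change -0.84 to 0.29). The higher gene, armi, had 34.9 and 51.8 CPM in the bamGAL4 libraries labelled knockdown, was at 0 in the other 6 libraries and shares its interval with CG46463. The 2 genes summed to 191 and 231 CPM in the bamGAL4 libraries labelled knockdown and 394 and 257 CPM in the nosGAL4 libraries labelled knockdown, so that the sum was lower with bamGAL4 while armi alone was called higher. The reads of these overlapping genes cannot be told apart, and armi is treated as uncertain.

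Unlike the early oogenesis list as a whole, blanks and RpL22-like were present in both kinds of targeted ovary and nearly absent from the controls. The list summed to 571 and 512 CPM in the bamGAL4 libraries labelled knockdown, against 2041 and 2213 CPM in the bamGAL4 controls. With nosGAL4 it summed to 1072 and 589 CPM, against 871 and 977 CPM in the controls. The 5 members with at least 5 CPM in both controls kept a median of 7.78% and 10.5% of control with bamGAL4. With nosGAL4 they kept 37% and 11.5%. blanks, an RNA-binding protein best known from the testis, had 6.29 and 12.4 CPM in the bamGAL4 libraries labelled knockdown, against 82.6 and 27.9 CPM in the nosGAL4 libraries labelled knockdown (log2 fold change -2.56, SE 0.51, adjusted p = 0.0271), and under 1 CPM in all 4 controls. RpL22-like, a germline paralogue of a ribosomal protein, had 10.5 and 21.3 CPM against 124 and 39 CPM and at most 0.0792 CPM in the controls, without passing the test (adjusted p = 0.0838). Over the list of 12 tested genes of early oogenesis, blanks was the 1 gene lower and 0 were higher (median -1.56). That call was lost without bamGAL4 replicate 1, without bamGAL4 replicate 2 and without nosGAL4 replicate 1 (0 lower each, median -0.66 without the last), and without nosGAL4 replicate 2 there were 6 lower genes.

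**Figure D4:**
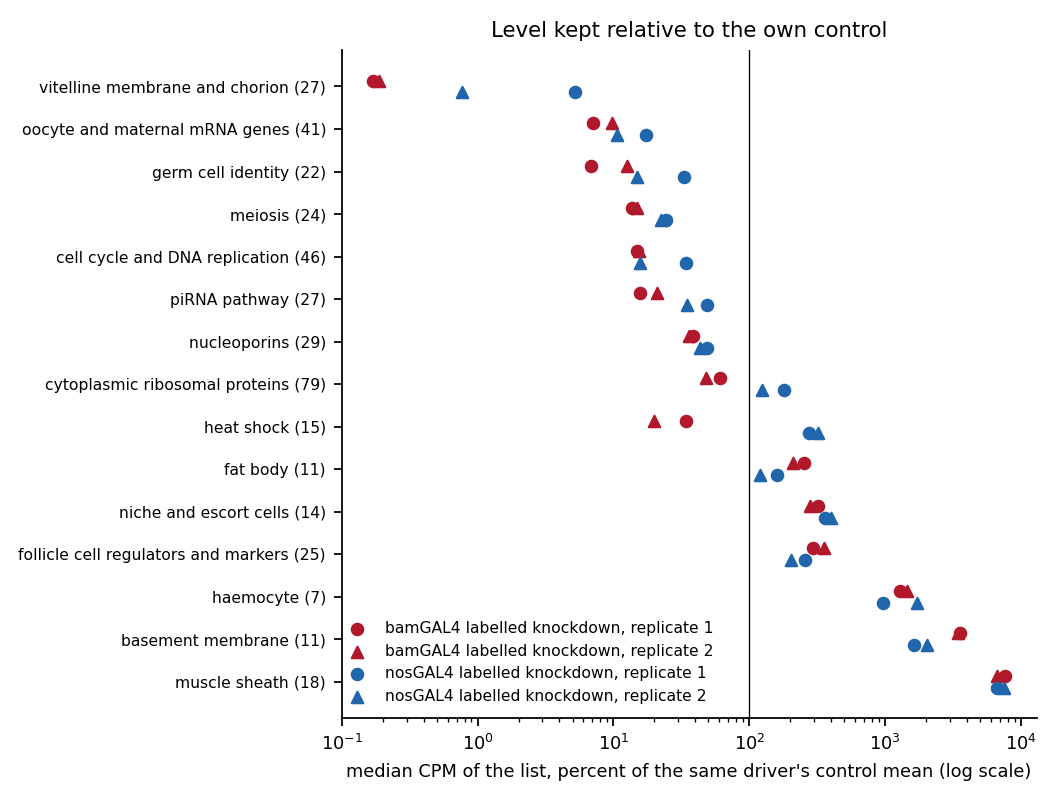
For 15 gene lists, the median CPM of members with at least 5 CPM in both control groups, as a percent of the same driver's control mean (log scale, 100 marked), in each library labelled knockdown; bamGAL4 in red above, nosGAL4 in blue below, with the number of members in brackets. Eggshell genes kept 0.17% and 0.187% with bamGAL4 and 5.23% and 0.77% with nosGAL4, while muscle genes stood at 6661% to 7667% in all 4.

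Some fat body and yolk genes were higher with bamGAL4. The fat body is the storage tissue that surrounds the ovary, and follicle cells and fat body both make yolk proteins. Of 25 fat body genes, 8 were higher and 0 lower, with a median log2 fold change of 1.02. The list includes the yolk protein Yp1, which was not called but held a large part of the sums in the libraries labelled knockdown. Yp1 and apolpp are also in the yolk list that follows, where apolpp counts again among the higher genes. The list summed to 18596 and 19420 CPM in the bamGAL4 libraries labelled knockdown and 8506 and 4087 CPM in the nosGAL4 libraries labelled knockdown, against 3899 and 6179 CPM in the bamGAL4 controls and 3039 and 3113 CPM in the nosGAL4 controls. Lsp1beta, a larval storage protein (chromosome 2L, 898500 to 901316), had 1303 and 990 CPM in the bamGAL4 libraries labelled knockdown, against 45.3 and 14.5 CPM in the nosGAL4 libraries labelled knockdown (log2 fold change 5.26, SE 0.53, adjusted p = 0.00305). Both control groups were under 1 CPM. Lsp2, another storage protein, had 1779 and 1233 CPM against 537 and 157 CPM and did not pass (adjusted p = 0.185). Without bamGAL4 replicate 1 the list had 1 higher gene, without replicate 2 it had 3, and without nosGAL4 replicate 1 it had 10. The part that attached fat body tissue plays in these values was not tested.

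Of 10 genes for yolk proteins, their carriers and their uptake, 4 were higher and 1 was lower. Without either one of the bamGAL4 replicates 2 were higher and 0 lower. The higher ones were Apoltp and Mtp, which handle lipoproteins, and, named after their values were seen, the lipophorin precursor apolpp and the yolk protein Yp3. Apoltp had 161 and 278 CPM against 29.6 and 22.2 CPM (log2 fold change 3.08, SE 0.32, adjusted p = 0.00206), and Yp3 had 4955 and 4509 CPM against 1481 and 587 CPM (log2 fold change 2.19, SE 0.40, adjusted p = 0.0199). Yp1 had 6204 and 6216 CPM against 4242 and 1621 CPM and was not called (adjusted p = 0.189). The lower gene was yl, the yolk receptor of the oocyte, with 7.8 and 13.1 CPM against 71.1 and 106 CPM (log2 fold change -3.08, SE 0.47, adjusted p = 0.0105).

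Part of the metabolic genes examined were higher. The 3 lists used for this were chosen after the values were seen, and so their counts are a description. They also hold FASN1, FASN2, UGP, GlyP and Tps1, which are among the 8 higher genes of the fat body list. Of 19 genes for fatty acid and hydrocarbon synthesis, 12 were higher and 0 lower (median log2 fold change 1.76), of 25 for glycogen, trehalose and glycolysis 9 were higher and 0 lower (median 0.77), and of 17 for purine and one-carbon metabolism 5 were higher and 0 lower (median 0.36). FASN1, the main fatty acid synthase, had 648 and 682 CPM in the bamGAL4 libraries labelled knockdown, against 237 and 156 CPM in the nosGAL4 libraries labelled knockdown (log2 fold change 1.76, SE 0.30, adjusted p = 0.014). ACC, which makes malonyl-CoA for it, had 510 and 450 CPM against 147 and 122 CPM (log2 fold change 1.84, adjusted p = 0.014). Several of the genes are known from oenocytes, the cells of the body wall that make cuticular hydrocarbons. Cyp4g1, the decarbonylase of that pathway, had 2833 and 2352 CPM against 511 and 210 CPM (log2 fold change 2.85, adjusted p = 0.014), and FASN3 had 352 and 361 CPM against 37 and 17.9 CPM (log2 fold change 3.70, adjusted p = 0.00895). Cyp4g1 had 21.3 to 77.1 CPM and FASN3 had 0.238 to 4.6 CPM in the controls. GlyP, glycogen phosphorylase, UGP, which makes UDP-glucose, and Prat2, an enzyme that opens purine synthesis, were higher by log2 fold changes of 1.52, 2.00 and 3.09 (adjusted p = 0.014, 0.00636 and 0.0035). Without bamGAL4 replicate 1 the 3 lists had 0 calls each, and without replicate 2 they had 2 each.

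**Figure D5:**
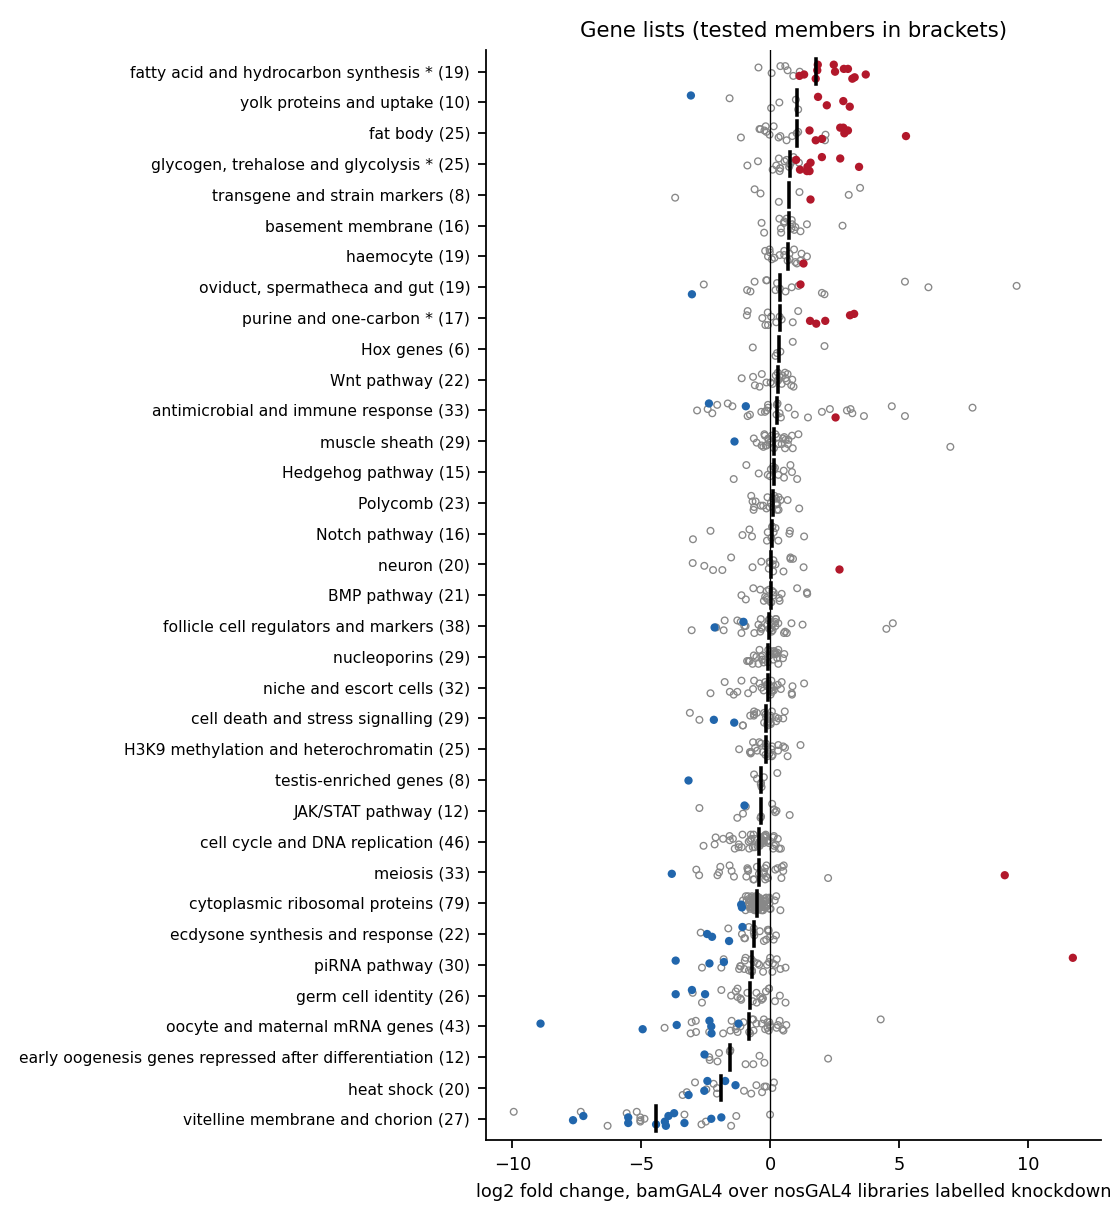
Log2 fold change of bamGAL4 over nosGAL4 in the libraries labelled knockdown for the tested members of each gene list (number in brackets), with the median as a black bar; filled points passed the test, red higher and blue lower, and an asterisk marks the 3 lists chosen after the values were seen. Eggshell genes sit at a median of -4.43 and heat shock genes at -1.91, fat body genes at 1.02, and the nucleoporins at -0.08.

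Heat shock genes were lower with bamGAL4, in the opposite direction to the controls. Of 20 tested, 5 were lower and 0 higher, with a median log2 fold change of -1.91. Between the controls, which also differ in balancers, 6 were higher with bamGAL4 and 0 lower (median 1.56). The difference between both comparisons was called as negative for 8. With either one of the bamGAL4 replicates left out, 3 genes were still lower. The small heat shock protein genes lie together on chromosome 3L between 9372931 and 9385694. There, Hsp22, a mitochondrial chaperone, had 12.7 and 7.06 CPM in the bamGAL4 libraries labelled knockdown, against 93.6 and 84.4 CPM in the nosGAL4 libraries labelled knockdown (log2 fold change -3.17, SE 0.34, adjusted p = 0.00206). In the controls the order was turned round, with 95.2 and 137 CPM with bamGAL4, against 16.7 and 12 CPM with nosGAL4. Hsp26 had 122 and 85.3 CPM against 710 and 515 CPM, Hsp27 had 109 and 91.4 CPM against 592 and 493 CPM, and Hsp23 had 85.1 and 72.4 CPM against 216 and 185 CPM, with log2 fold changes of -2.56, -2.44 and -1.35. Hsp70Aa, one of several near-identical copies whose reads may be shared, had 523 and 298 CPM against 1566 and 1876 CPM and was not called (adjusted p = 0.113), while the difference between both comparisons was (log2 -5.80, SE 0.91, adjusted p = 0.0304).

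Outside the fat body and eggshell lists, few genes of somatic cell types passed the test, and few did over all tested genes (4.14%). Muscle genes, listed for the sheath around each ovariole, made up 68179 and 62578 CPM in the bamGAL4 libraries labelled knockdown. They made up 51793 and 59902 CPM in the nosGAL4 libraries labelled knockdown, against 1105 to 1315 CPM in the controls. Which tissue gave this RNA was not tested. Of 29 muscle genes in the test, TpnC47D, a troponin C, was the 1 gene lower and 0 were higher (median 0.14). At an unadjusted p under 0.05 there were 8, and DESeq2 called 4 higher and 1 lower. Mhc, muscle myosin, had 10308 and 9253 CPM against 4464 and 6275 CPM and was not called (log2 fold change 0.87, 95% interval 0.22 to 1.51, adjusted p = 0.12). In the haemocyte list, Hml was the 1 gene higher of 19 and 0 were lower (median 0.67), with 1555 and 1746 CPM against 639 and 751 CPM (log2 fold change 1.25, SE 0.30, adjusted p = 0.0464). In that list 15 genes had a positive log2 fold change, 9 had an unadjusted p under 0.05 and DESeq2 called 4 higher, and the summed level was 15098 and 14726 CPM against 6493 and 9623 CPM. Of 16 basement membrane genes edgeR called 0, with a median of 0.73 and 14 positive, where 8 had an unadjusted p under 0.05 and DESeq2 called 6 higher. Their summed level was 27999 and 27611 CPM against 14538 and 17927 CPM, and 3 of the 16 had a 95% interval within 2-fold. Neuron genes held 1 higher gene of 20, the neuropeptide precursor Nplp2 (577 and 675 CPM, against 110 and 89.5 CPM), while elav, the general neuron marker, had 94 and 121 CPM against 72.4 and 127 CPM. Of 19 genes of oviduct, spermatheca and gut, 1 was higher, the octopamine receptor Oamb, and 1 was lower, the gut protease Jon99Ciii.

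The lists for somatic cells of the germarium and for follicle cell regulators and markers had medians near 0, unlike the eggshell genes that follicle cells express. Of 32 tested genes of the niche and the escort cells, edgeR called 0, with a median of -0.09 and 25 of them within 2-fold. In that list 8 genes had an unadjusted p under 0.05, and DESeq2 called 1 higher and 1 lower. Wnt4, an escort cell ligand, had 23.8 and 25.6 CPM against 39.5 and 39.5 CPM (log2 fold change -0.67, 95% interval -1.34 to -0.01, adjusted p = 0.212). In the follicle cell list, 2 of 38 genes were lower and 0 higher (median -0.06). At an unadjusted p under 0.05 there were 12, and DESeq2 called 4 lower and 0 higher. The 2 genes that edgeR called were peb, the transcription factor Hindsight of mid-oogenesis follicle cells, and Socs36E, the feedback inhibitor of JAK/STAT signalling. peb had 18.6 and 24.2 CPM against 133 and 58.9 CPM (log2 fold change -2.16, SE 0.39, adjusted p = 0.0188). Fas3, a marker of early follicle cells and polar cells, had 919 and 978 CPM against 1005 and 1444 CPM (95% interval of the log2 fold change -0.94 to 0.20). cas, a marker of follicle cell precursors, had 37.9 and 31 CPM against 27.8 and 40.7 CPM (interval -0.84 to 0.86).

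Signalling genes were called in few cases, where 4.14% of all tested genes were called. In the BMP, Hedgehog, Wnt and Notch lists edgeR called 0 of 21, 0 of 15, 0 of 22 and 0 of 16 genes. At an unadjusted p under 0.05 there were 4, 4, 6 and 4, and DESeq2 called 3, 1, 3 and 2. In JAK/STAT Socs36E was the 1 gene lower of 12, with 27.8 and 32.1 CPM against 53.8 and 69.4 CPM (log2 fold change -1.04, SE 0.25, adjusted p = 0.0469). dpp, the BMP ligand that maintains germline stem cells, had 120 and 118 CPM against 87.7 and 144 CPM (log2 fold change 0.04, 95% interval -0.59 to 0.67). Of 22 genes of ecdysone synthesis and response, 4 were lower and 0 higher, with a median of -0.64: Eip75B and Hr4, nuclear receptors induced by the hormone, spo, an enzyme of its synthesis, and ImpL2, which binds insulin-like peptides, of which Hr4 was chosen after its values were seen. Eip75B had 152 and 156 CPM against 379 and 271 CPM (log2 fold change -1.08, SE 0.23, adjusted p = 0.0352), and ImpL2 had 18.8 and 20.1 CPM against 69.5 and 48 CPM (log2 fold change -1.60, SE 0.31, adjusted p = 0.0214). Ilp6, an insulin-like peptide chosen after its values were seen, had 15 and 20.2 CPM against 186 and 75.1 CPM (log2 fold change -2.89, SE 0.46, adjusted p = 0.0116).

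Among 33 immune genes, 1 was higher, the antibacterial peptide Def, and 2 were lower, where 4.14% of all tested genes were called. The lower ones were AttB and, chosen after its values were seen, the NF-kappaB factor Rel. At an unadjusted p under 0.05 there were 15, and DESeq2 called 7 higher and 4 lower. Def had 47.9 and 39.8 CPM against 5.54 and 9.68 CPM, and was also higher in the bamGAL4 controls. The antifungal peptide Drs had 95.6 and 84.9 CPM against 2.7 and 2.12 CPM but varied in the controls and was not called (adjusted p = 0.0604).

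Few genes of the nuclear pore, of chromatin and of cell division passed the test, where 4.14% of all tested genes did. The nuclear pore is named in the study's title. All 29 nucleoporin genes were within 2-fold, 17 of them with a 95% interval within 2-fold, and 0 were called by edgeR or by DESeq2 (median -0.08, 4 with an unadjusted p under 0.05). They kept a median of 38.4% and 36% of their control level in the bamGAL4 libraries labelled knockdown against 48.5% and 43.7% in the nosGAL4 libraries so labelled, an order that turned round when scaled to the ribosomal protein genes, with 62.8% and 72% against 27.7% and 35.4%. Nup154, a scaffold nucleoporin, had 59.8 and 59.1 CPM against 95 and 52.7 CPM (log2 fold change -0.31, 95% interval -0.98 to 0.36). In the lists for H3K9 methylation and heterochromatin (25), Polycomb (23) and Hox genes (6), edgeR called 0, with medians of -0.17, 0.10 and 0.32. At an unadjusted p under 0.05 there were 6, 6 and 1, and DESeq2 called 0, 2 and 0. There, egg, the H3K9 methyltransferase of the ovary, had 36.1 and 42.1 CPM against 44.9 and 39.8 CPM. In the cell cycle list edgeR called 0 of 46, where 38 had a negative log2 fold change, 17 a 95% interval within 2-fold and 13 an unadjusted p under 0.05, and DESeq2 called 6 lower. The median was -0.43, came to 0.08 when scaled to the ribosomal protein genes and to -0.07 without nosGAL4 replicate 1, and without nosGAL4 replicate 2 edgeR called 17 lower. CycB had 33.7 and 40.6 CPM against 207 and 56.5 CPM (adjusted p = 0.086), so that nosGAL4 replicate 1 stood apart. Of 79 cytoplasmic ribosomal protein genes, 75 had a negative log2 fold change, with a median of -0.51, and RpL37A passed the test as lower. Between the controls 36 of them were higher with bamGAL4 (median 0.97), and the direction depends on the scaling: scaled to these genes, the median over all genes moved to 0.45.

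By the fitted fold change, the largest differences were in genes seen in 1 kind of ovary and not in the other. Where a group is at 0, the fitted size depends on the prior count, the small count added in the fit. The rank of such genes therefore depends on it too. The 10 genes with the largest rise by the naming rule were all at 0 in both nosGAL4 libraries labelled knockdown, led by CG13318 (chromosome 3R, 8771246 to 8772691), with 25.9 and 17.8 CPM in the bamGAL4 libraries labelled knockdown, at least 110-fold higher, and CG43112, with 20.9 and 18.8 CPM, at least 99.1-fold higher. Of those 10, CG16727, CG13309 and Alp2, an alkaline phosphatase, were also called higher in the bamGAL4 controls. In all, 22 of the 190 higher genes were at 0 in both nosGAL4 libraries labelled knockdown, and 5 of the 181 lower genes were at 0 in both bamGAL4 libraries labelled knockdown. These counts are not comparable. The nosGAL4 pair was shallower, with a count for 9335 and 9486 genes against 10313 and 10447 in the bamGAL4 pair. The share of all tested genes at 0 in each pair is not given here. By the same rank CG12592 led the lower genes. It was at 0 in both bamGAL4 libraries labelled knockdown and at 6.49 and 10.9 CPM in the nosGAL4 pair, at least 61.9-fold lower. CG12592 was at 0 in both bamGAL4 controls and at 20.5 and 12.3 CPM in the nosGAL4 controls. Muc30E, a mucin, had 0.354 and 0.497 CPM against 32.4 and 42.4 CPM (log2 fold change -6.43, SE 0.54, adjusted p = 0.00206) and was at 0 in all 4 controls.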

How the data were processed

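Libraries were made from whole-ovary RNA with a kit that keeps strand (labels' protocols). The deposited values are estimated counts per gene that the authors made before deposit, in 1 table per driver and without scaling. Tools listed by the submitters' processing notes are Salmon 1.2.1, STAR 2.7.5b, Trim Galore 0.6.6 and FastQC 0.11.8, with build dm6. For the gene annotation and strand setting of the counting the sources used here give nothing, and genes that overlap may therefore share reads. Of 14094 genes, 14048 identifiers were found in BDGP6.54, which gave positions.

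Counts were rounded, joined by gene identifier and filtered with filterByExpr (minimum count 10, minimum total 15), leaving 8957 genes. edgeR 4.0.16 (limma 3.58.1, R 4.3.3) fitted 1 robust quasi-likelihood model with TMM scaling to 8 libraries (4 residual degrees of freedom, prior count 0.125), with Benjamini-Hochberg adjustment over all genes. SEs come from the F statistic, and intervals are 95% and unadjusted. A count of 3 was the floor, at 0.238 to 0.405 CPM per library. Counting intervals cover counting error only.

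The libraries and gene lists were chosen with earlier results of these data known. Named genes were stwl, nos and bam, an anchor set per list, up to 2 further called members per list by adjusted p, and the 10 largest changes per direction among called genes without overlap of groups, with at least 5 CPM in the higher group and no overlapping gene; others are said to be chosen later. On simulated counts for this comparison (8756 genes), 22% of genes changed 2-fold, 92% changed 4-fold and 100% changed 8-fold were recovered, and 12 of 169 calls were of unchanged genes. The simulation gave every gene and group the same dispersion (0.0699) and changed only genes above a minimum mean count. The real pairs differed in spread, so these rates need not hold for them. One gene that the rule would name is not reported here.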

Additional observations from a re-analysis of the deposited data

Results flagged for a closer look

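For the genes below, the bamGAL4 over nosGAL4 difference in the libraries labelled knockdown differed from the same difference in the controls, by the test of that difference itself in edgeR's model; the values are the first log2 fold change minus the second. The comparison and the controls were examined over all 8957 genes, and 240 (2.68%) were called. The controls also differ in their listed balancers, which cannot be told apart from the driver line. No cause was tested.

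Among eggshell and oocyte genes the values were -5.48 for Cp36, -4.68 for Vm26Aa, -6.68 for Vm34Ca, -8.15 for yellow-g2, -8.64 for bcd, -5.70 for dhd, -3.42 for yl and -4.11 for mtrm. For the germ cell and piRNA genes otu, tej and zuc they were -1.96, -3.61 and -2.44. In the heat shock list they were -6.18 for Hsp22, -4.07 for Hsp23, -3.69 for Hsp26, -3.20 for Hsp27 and -5.80 for Hsp70Aa. For Socs36E, AttB, Rel, ImpL2, RpL37A and Jon99Ciii they were -1.67, -4.07, -1.66, -3.02, -1.91 and -11.32.

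In the positive direction the values were 4.77 for Apoltp, 1.66 for Mtp, 4.63 for apolpp, 6.15 for FASN3, 4.26 for Cyp4g1, 1.82 for UGP, 1.77 for GlyP and 3.03 for Prat2. Nplp2 had 2.81 and Oamb 2.98. For CG43112 (14.56) and for mei-217 (11.37), which shares exons with mei-218, a group was at 0, so the size depends on the prior count, as it does for yellow-g2.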

How the results depend on the processing

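Of the counts in the libraries labelled knockdown (190 higher, 181 lower), DESeq2 1.42.0 gave 516 and 463, including 189 of the 190 and 181 of the 181. Ribosomal protein scaling gave 396 and 87. A fit to the libraries labelled knockdown alone gave 83 and 41, including 67 of the 190 and 31 of the 181. Leaving out 1 library gave 10 to 534 higher and 12 to 837 lower. The lowest counts came without 1 of the bamGAL4 libraries labelled knockdown. RLE factors, library totals, a length offset and both filters stayed within 1.5 times for this comparison. On the simulated counts, which had the same spread in all groups, a 2-fold change was mostly not called.

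Between the controls (330 higher, 279 lower), library totals gave 201 higher, ribosomal protein scaling 102 and 2880, DESeq2 545 and 666, and the length offset 57 and 35. Leaving out 1 library gave 14 to 843 and 13 to 607. For the difference between both comparisons (104 higher, 136 lower), RLE factors gave 161 higher, library totals 176, ribosomal protein scaling 3327, DESeq2 609 and 455, no filter 248 and 289, and the length offset 44 and 58. Leaving out 1 library gave 10 to 573 and 17 to 997. The cause was not tested.

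Replicate numbers gave no pairing: deviations of same-numbered libraries correlated at -0.0468 between both groups labelled knockdown. With the replicate block the counts were 131 higher and 100 lower, between the controls 201 and 231, and for the difference 54 and 45.

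Genes near equality changed sign. Under ribosomal protein scaling nos came to 0.04, bam to 0.14, piwi to 0.25, Fas3 to 0.05, Nup154 to 0.22 and egg to 0.37. With the length offset elav came to -0.06, cas to -0.04 and dpp to -0.04, and cas came to 0.00 in the libraries labelled knockdown alone and to -0.01 with the replicate block. Leaving out 1 library gave -1.14 to 0.50 for nos, -2.24 to 4.98 for bam, -0.55 to 0.06 for piwi, -0.25 to 0.57 for elav, -0.24 to 0.31 for cas, -0.28 to 0.45 for dpp, -0.67 to 0.17 for Nup154 and -0.23 to 0.00 for egg.

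Of the level kept relative to the own control (mean of 2 libraries), ribosomal protein scaling moved the bamGAL4 value to 18.2% for germ cell genes (9.69% with TMM), to 0.326% for eggshell genes (0.179%) and to 15.6% for oocyte genes (8.41%), and the nosGAL4 value to 15.6% for germ cell genes (24.1%) and to 9.31% for oocyte genes (14%), so that for germ cell and oocyte genes bamGAL4 came out above nosGAL4, the reverse of the order with TMM. Library totals moved the bamGAL4 eggshell value to 0.154%.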

Other observations

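Cell death and testis genes were not part of the comparisons above, where 4.14% of all tested genes were called. Of 29 genes of cell death and stress signalling, 2 were lower in the bamGAL4 libraries labelled knockdown and 0 higher (median log2 fold change -0.17), with 0 lower without either one of the bamGAL4 replicates. These were Dcp-1, a caspase active in dying egg chambers, with 9.22 and 13.1 CPM against 30.7 and 28.3 CPM (log2 fold change -1.40, SE 0.26, adjusted p = 0.0183), and Gadd45, with 15.7 and 12.9 CPM against 50.7 and 80 CPM in the nosGAL4 libraries labelled knockdown (log2 fold change -2.19, SE 0.46, adjusted p = 0.0328). Of 29 testis-enriched genes 8 could be tested, and janB was lower (log2 fold change -3.20, adjusted p = 0.0264). Adh, which was listed as a marker of strain background, was higher, with 1739 and 1523 CPM against 612 and 524 CPM (log2 fold change 1.52, adjusted p = 0.00701).

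By chromosome arm, the X chromosome had 23 higher and 50 lower genes of 1532 tested, 2L 48 and 37 of 1621, and chromosome 4 had 1 higher of 75. On chromosome 4, 26.7% of genes were called between the controls and 1.33% between the libraries labelled knockdown. In 4 equal bins of genes from the shortest to the longest, the median log2 fold change was -0.18, -0.04, 0.02 and 0.14. Of the 181 lower genes, 129 were higher in nosGAL4 replicate 1 than in replicate 2, against 49.8% of all tested genes.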
